A study of Mus musculus with 8 samples.

Results

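The difference between the superior (dorsal) and the inferior (ventral) retina was read as a main effect that held in animals kept in room air and in animals kept in high oxygen. It was taken over all 8 arrays, 4 of inferior against 4 of superior retina, with oxygen treatment as a second factor and no interaction. The mice were C57BL/6J, a pigmented laboratory strain that the labels call vulnerable to hyperoxia, and all of them lived in dim cyclic light. Superior and inferior retinas came from control mice in normoxia and from mice given 75% oxygen for 14 days (here called exposed) from an age of 83 to 90 days. Controls were killed at the same age as the exposed mice. Each of these 4 groups had 2 arrays, given below in the order replicate 1 and replicate 2, each made from the pooled retinas of 2 animals, 1 male and 1 female. The sources used here leave it unsaid whether equally numbered arrays share animals, and the p-values cover only the spread among these arrays. Short probes along the exons report each gene, and values are log2 signals as the authors deposited them for 28853 probe sets, which are the array's units of measurement.

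The retina is laid out along a dorsal to ventral axis early in life. T-box factors such as TBX5 act in its dorsal part and the homeodomain factor VAX2 in its ventral part, and the axis also carries gradients of ephrin-B ligands and EphB receptors that guide ganglion cell axons, and separate enzymes that make retinoic acid. In the adult mouse the cones follow the same axis. Medium-wave opsin prevails in superior cones and short-wave opsin in inferior cones, and rods, which far outnumber cones, lie in both regions. RNA of a whole retinal region was measured here, so fewer cells of a type and less RNA per cell cannot be told apart.

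Median log2 signals of the arrays ran from 6.98 to 7.05, and any pair of arrays correlated at 0.993 or more across probe sets. 1 library stood apart. On control inferior replicate 2 the summed linear signal of 22 lens genes was 47490, against 1673 to 3969 on the other 7 arrays, and the median of these genes lay 1.77 above their means on the log2 scale. In each other group the lens median was also higher on replicate 2 than on replicate 1. It was 0.0018 against -0.43 in control superior, -0.24 against -0.46 in exposed superior and -0.02 against -0.52 in exposed inferior retinas. The summed signal of 19 genes of the retinal pigment epithelium was 5021 and 9183 in the control superior retinas. It was 7698 to 13500 in control inferior and 12660 to 14410 in exposed retinas. The median of these genes, taken from their means, was lowest on replicate 1 of control superior (-0.76) and of control inferior retinas (-0.32). The parts of these transcripts in the results were not tested, and values without that control inferior array are given for the members and lists that it moved most. Retinal identity was plain on all arrays, with the summed signal of 18 rod genes between 118600 and 145000.

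The sequences before the starts of a few leading genes are shown so that the regional genes can be read beside their own promoters. Each is the 250 bases before the RefSeq start (GRCm38.p6), 5′ to 3′ on the gene's strand. Opn1sw (chr6:29380514-29380763, minus strand) and Opn1mw (chrX:74127216-74127465, plus strand) encode the short-wave and medium-wave cone opsins, Arr3 (chrX:100605247-100605496, plus strand) encodes cone arrestin, Sst (chr16:23890845-23891094, minus strand) encodes the neuropeptide somatostatin, and Nr2f2 (chr7:70366747-70366996, minus strand) encodes a nuclear receptor of the dorsal retina. Capitals mark every match, on either strand, to the motifs described after them.
Opn1sw: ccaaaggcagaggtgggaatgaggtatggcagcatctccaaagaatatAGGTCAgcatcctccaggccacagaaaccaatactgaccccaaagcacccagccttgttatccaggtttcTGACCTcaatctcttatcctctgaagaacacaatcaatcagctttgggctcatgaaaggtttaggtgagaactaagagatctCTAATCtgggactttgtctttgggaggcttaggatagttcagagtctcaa
Opn1mw: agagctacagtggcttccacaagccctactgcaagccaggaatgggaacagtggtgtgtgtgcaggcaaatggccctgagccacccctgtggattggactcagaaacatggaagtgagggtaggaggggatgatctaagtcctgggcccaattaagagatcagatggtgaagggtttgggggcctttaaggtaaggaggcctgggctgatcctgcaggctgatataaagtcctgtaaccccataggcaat
Arr3: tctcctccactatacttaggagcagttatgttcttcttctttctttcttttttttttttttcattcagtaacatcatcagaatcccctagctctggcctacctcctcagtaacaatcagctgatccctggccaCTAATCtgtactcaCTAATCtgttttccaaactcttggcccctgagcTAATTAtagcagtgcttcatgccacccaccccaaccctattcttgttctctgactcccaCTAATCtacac
Sst: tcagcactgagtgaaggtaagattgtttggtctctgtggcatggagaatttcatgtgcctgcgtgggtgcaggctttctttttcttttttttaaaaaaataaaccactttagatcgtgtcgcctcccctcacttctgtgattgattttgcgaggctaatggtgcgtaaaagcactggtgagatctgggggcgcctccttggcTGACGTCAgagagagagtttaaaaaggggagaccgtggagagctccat
Nr2f2: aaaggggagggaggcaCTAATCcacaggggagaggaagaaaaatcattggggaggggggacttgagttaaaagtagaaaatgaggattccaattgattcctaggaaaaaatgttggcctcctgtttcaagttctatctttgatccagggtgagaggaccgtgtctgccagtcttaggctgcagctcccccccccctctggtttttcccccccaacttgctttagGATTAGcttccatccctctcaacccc

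The motifs searched were GGTGTGA, a T-box site; TAATTA, a homeodomain site; CTAATC, a core bound by photoreceptor factors of the CRX and OTX kind; AGGTCA, the core of nuclear receptor sites; and TGACGTCA, the cAMP response element. They were found in 3.33%, 4.84%, 5.65%, 14% and 1.56% of 32536 windows of this length in the promoter table. The short-wave opsin window held AGGTCA on either strand 2 times and CTAATC 1 time, the last of these 45 to 50 bases before the start. The cone arrestin window held CTAATC 3 times and TAATTA 1 time. The somatostatin window held the cAMP response element 41 to 48 bases before the start, the *Nr2f2* window held CTAATC 2 times, and the medium-wave opsin window held none of the 5 motifs. GGTGTGA was in none of the 5 windows, which says only that these letters are not there. The search covered 16 of the 20 leading genes, those in the promoter table. Among those not shown, GGTGTGA was before *Slc29a4*, TGACGTCA before *Pdlim3*, CTAATC before *Tac2* and AGGTCA before *Lgi2* and *Olfr1411*. None of the 5 motifs was before *Efnb2*, *Foxd1*, *Kif4*, *Ly86*, *Ankar* or *Ccdc136*. *Tbx5* and *Vax2* are named without a promoter.

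Over all probe sets, 1 passed limma's test of the region difference at an adjusted p under 0.05 (Benjamini-Hochberg over all probe sets), which is 0.00347% of those tested. It was *Tbx5*, and it was higher in the superior retina; 0 were higher in the inferior retina. At an unadjusted p under 0.05 the same limma fit had 2111 probe sets (7.32%), of which 1015 leaned to the inferior (3.52% of all) and 1096 to the superior retina (3.8%). The 10 genes with the smallest p in each direction are called the leading genes here. Arrays of the 2 regions did not overlap in either treatment, with the same direction in both, for 2130 probe sets (7.38%; 3.72% toward the inferior and 3.66% toward the superior retina), and they did not overlap in opposite directions for 1709 (5.92%). A region difference of over 1.5-fold was found for 149 probe sets in control retinas (0.516%) and for 253 in hyperoxia-exposed retinas (0.877%). Only 13 of them were past 1.5-fold in both treatments in the same direction (0.0451%), and 18 were past it in opposite directions (0.0624%).

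*Tbx5*, the T-box factor of the dorsal eye, gave the clearest regional signal in these data. Its log2 signal was 6.48 and 6.32 in control and 6.29 and 6.41 in exposed superior retinas, and 5.33 and 5.34 in control and 4.99 and 5.09 in exposed inferior retinas. Every superior array lay above every inferior array. The means were 6.37 ± 0.08 (SD, n = 4) in the superior and 5.19 ± 0.18 (SD, n = 4) in the inferior retina. The log2 difference, inferior minus superior, was -1.19 (standard error 0.08, 95% interval -1.36 to -1.02), or 2.28-fold, with an adjusted p of 0.00167 from limma. Within treatments the difference was -1.06 in control and -1.32 in hyperoxia-exposed retinas. A limma fit of the 4 group means gave these adjusted p of 0.0731 and 0.00649. The change in that difference with treatment was -0.25 (standard error 0.14) and did not pass limma's test (adjusted p = 0.838). The methods' t-test on the same values gave *Tbx5* an adjusted p of 0.399, and limma on the 4 control arrays alone gave 0.938.

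*Nr2f2* came second by p. It was at 8.56 and 8.47 in control and 8.54 and 8.72 in exposed superior retinas, and 7.81 and 7.93 in control and 7.67 and 7.80 in exposed inferior retinas, again with no overlap between regions. The log2 difference was -0.77 (standard error 0.08) with an adjusted p of 0.0584 from limma, just outside the threshold. The adjusted p was 0.0364 after quantile normalization, 0.0298 with arrays centred on their medians and 0.041 without dim probe sets, those with a mean log2 signal under 6, so its call depends on the scaling and on the filter.

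*Efnb2*, an ephrin-B ligand of the dorsal retina that is read by EphB receptors on growing axons, was at 8.56 and 8.25 in control and 8.39 and 8.54 in exposed superior retinas, and 7.63 and 7.78 in control and 7.51 and 7.19 in exposed inferior retinas. All 4 superior arrays lay above all 4 inferior ones. Inferior minus superior came to -0.91 (standard error 0.12, adjusted p = 0.135 from limma), with -0.70 in control and -1.12 in hyperoxia-exposed retinas. The related ligand gene *Efnb1* had a smaller difference of -0.20 (adjusted p = 0.667 from limma), and its control arrays overlapped.

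**Figure D1:**
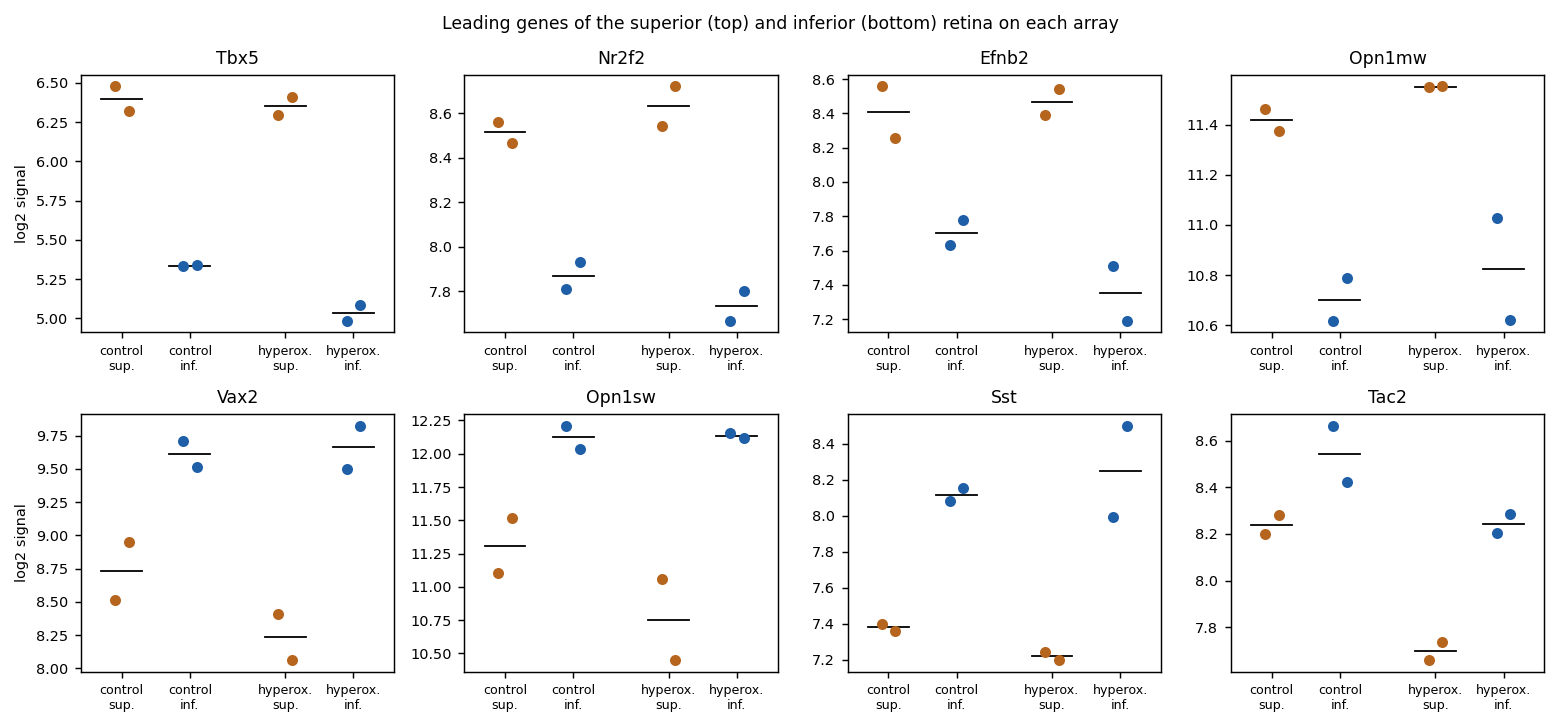
Log2 signal (vertical axes) of 8 genes on each of the 8 arrays, with groups along the horizontal axes; each point is 1 array, brown for superior and blue for inferior retina, and lines are group means of 2 arrays. Tbx5, Nr2f2, Efnb2 and Opn1mw lie higher on the superior arrays and Vax2, Opn1sw, Sst and Tac2 higher on the inferior arrays of each treatment; Tbx5, with group means from 5.04 to 6.40, is the only one past the adjusted threshold.

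The list of 12 superior patterning genes held *Tbx5*, *Nr2f2*, *Efnb2*, *Efnb1*, *Tbx2*, *Tbx3*, *Aldh1a1*, *Bambi*, *Smad6*, *Bmp2*, *Bmp4* and *Gdf6*. Of these 1 passed over all probe sets, 6 were higher in the superior retina at an unadjusted p under 0.05 from limma and 0 were higher in the inferior, beside 3.45% and 4% of all 19938 genes. The arrays of the 2 regions did not overlap in either treatment for 3 of them (*Tbx5*, *Nr2f2* and *Efnb2*), beside 3.55% of all genes in that direction. Without control inferior replicate 2 it was 7 of the 12, and without control superior replicate 2 it was 6. A count without overlap can only rise when an array is left out: over all genes, leaving out control inferior replicate 2 took it to 7.12% in the superior and 8.42% in the inferior direction. Leaving out control superior replicate 2 took the superior share to 6.47%. The count at an unadjusted p under 0.05 ran from 3 to 7 when each array was left out. The median log2 difference was -0.17, beside 0.0072 over all genes, and within treatments it was -0.07 in control and -0.31 in hyperoxia-exposed retinas. The study's own tables, made from these arrays, name *Tbx5*, *Nr2f2*, *Efnb2*, *Vax2*, *Sst*, *Alpk2* and both cone opsins, so the values of these genes here are not independent evidence. The ligands and modifiers of BMP signalling, the pathway that sets up dorsal identity in the embryo, showed no common direction. *Bmp4* was at 0.13 and *Gdf6* at 0.04 (log2 differences; adjusted p = 0.729 and 0.94 from limma), *Bambi*, a decoy receptor, was at -0.21 (adjusted p = 0.665), and the T-box genes *Tbx2* and *Tbx3* were at 0.05 and -0.13 (adjusted p = 0.901 and 0.697). *Bmp2* was at 0.10 (adjusted p = 0.903), and at -0.0637 without control inferior replicate 2. Over a wider list of 27 genes of BMP signalling, 1 was higher in each region at an unadjusted p under 0.05 and the median difference was 0.05.

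*Aldh1a1*, which makes retinoic acid in the dorsal retina and is also a lens enzyme, turned on 1 array. It was at 10.77 and 10.60 in control and 10.90 and 10.98 in exposed superior retinas, at 9.81 and 9.95 in exposed inferior retinas and at 9.79 on control inferior replicate 1. Control inferior replicate 2, the array with high lens transcripts, was at 11.03, above all others. With all arrays the log2 difference was -0.66 (standard error 0.25, adjusted p = 0.642 from limma). Without that array it was -0.99 (adjusted p = 0.0137), and *Aldh1a1* and *Tbx5* were then the 2 probe sets called. With the lens level of each array as a covariate it was -0.90 (adjusted p = 0.198). The whole list of 17 retinoic acid genes had a median of -0.01, and *Aldh1a3*, the enzyme of the ventral retina, was at -0.08 (adjusted p = 0.821).

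*Vax2*, the ventral homeodomain factor, had the largest difference toward the inferior retina among the leading genes. Its log2 signal was 8.51 and 8.95 in control and 8.41 and 8.06 in exposed superior retinas, and 9.71 and 9.52 in control and 9.50 and 9.83 in exposed inferior retinas. All inferior arrays lay above all superior ones, but the superior arrays spread more (8.48 ± 0.37, SD, n = 4) than the inferior (9.64 ± 0.16, SD, n = 4). In log2 terms the region difference was 1.15 (standard error 0.15, 95% interval 0.81 to 1.49), or 2.22-fold, and with an adjusted p of 0.135 from limma it did not pass. A fit in which the expected spread follows the signal level gave 0.026.

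*Foxd1*, a forkhead factor that marks a sector of the embryonic retina, was at 5.79 and 5.88 in control and 5.95 and 5.86 in exposed superior retinas, against 6.25 and 6.15 in control and 6.25 and 6.40 in exposed inferior retinas. Its 2 sets of arrays did not overlap, and the log2 difference was 0.39 (standard error 0.06, adjusted p = 0.397 from limma). *Nr2f1*, the close relative of *Nr2f2*, ran the other way, at 0.28 (standard error 0.09, adjusted p = 0.638), without overlap within either treatment. *Ephb3*, a receptor for ephrin-B ligands of the ventral retina, was at 0.25 (standard error 0.08, adjusted p = 0.638), also without overlap within either treatment.

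The 12 measured genes of inferior patterning held 3 that were higher in the inferior retina at an unadjusted p under 0.05 from limma, *Vax2*, *Ephb3* and *Nr2f1*, and the same 3 had no overlap in either treatment, beside 4.16% of all genes in that direction. The only member past an unadjusted p of 0.05 in the superior direction was *Cyp1b1*, an oxidase that can make retinoic acid, at -0.21 (adjusted p = 0.673). *Vax1*, *Pax2* and *Ntn1*, which mark the optic stalk and disc in the embryo, were at -0.06, -0.16 and -0.05 (adjusted p from 0.673 to 0.908). *Ephb1*, another EphB receptor, was at -0.01 (adjusted p = 0.973). The median over the list was 0.04. Among all 20 ephrins and Eph receptors, 3 were higher in each region at an unadjusted p under 0.05 (4% of all genes in the inferior and 3.45% in the superior direction), with *Epha6* at 0.34 and *Efnb3* at -0.17 beside *Efnb2* and *Ephb3*.

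The 2 cone opsins lay on opposite sides. *Opn1sw* was at 11.10 and 11.51 in control and 11.06 and 10.45 in exposed superior retinas, and 12.21 and 12.04 in control and 12.16 and 12.12 in exposed inferior retinas. The inferior arrays lay close together (12.13 ± 0.07, SD, n = 4), and the superior arrays were lower and spread more widely (11.03 ± 0.44, SD, n = 4). Limma put the log2 difference at 1.10 (standard error 0.16, 95% interval 0.73 to 1.47), or 2.14-fold (adjusted p = 0.215 from limma). It was 0.82 in control and 1.38 in hyperoxia-exposed retinas, and the change of 0.56 did not pass its own test (adjusted p = 0.829).

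*Opn1mw* was at 11.46 and 11.38 in control and 11.55 and 11.55 in exposed superior retinas, and 10.62 and 10.79 in control and 11.03 and 10.62 in exposed inferior retinas. The regions did not overlap. The log2 difference was -0.72 (standard error 0.09, 95% interval -0.93 to -0.52), or 1.65-fold, with an adjusted p of 0.135 from limma. Of the leading genes it was the one whose difference moved least with treatment, at -0.72 in control and -0.73 in hyperoxia-exposed retinas.

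Cone genes beyond the opsins were mixed. *Arr3*, the arrestin that quenches cone opsins, was at 10.98 and 11.00 in control and 11.06 and 10.88 in exposed superior retinas, and 10.66 and 10.65 in control and 10.66 and 10.54 in exposed inferior retinas. It did not overlap between regions, at a log2 difference of -0.35 (standard error 0.06, adjusted p = 0.501 from limma). *Thrb*, the thyroid hormone receptor gene needed for medium-wave opsin, was at -0.24 (standard error 0.07, adjusted p = 0.638), with no overlap within either treatment. Over the 15 cone genes, the opsins included, 2 leaned to the inferior and 3 to the superior retina at an unadjusted p under 0.05, beside 4% and 3.45% of all genes. In the same order 1 and 3 had no overlap in either treatment, beside 4.16% and 3.55%. Without control inferior replicate 2 it was 3 and 3, beside 8.42% and 7.12%. The median difference was 0.01.

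Rod genes leaned the same way as each other. Of 18 rod genes 17 had a lower mean in the inferior retina, 6 at an unadjusted p under 0.05 from limma (3.45% of all genes) against 0 that were higher, and 7 had no overlap in either treatment (3.55% of all genes). Leaving out each array gave 3 to 7 at an unadjusted p under 0.05 and 7 to 13 without overlap, with 13 when control superior replicate 1 was left out. Over all genes, 6.02% had no overlap in the superior direction without that array. None of the rod genes passed over all probe sets. The median difference was -0.15, with -0.04 in control and -0.24 in hyperoxia-exposed retinas, and it ran from -0.19 to -0.09 when each array was left out in turn. *Gngt1*, a subunit of rod transducin, was at 11.77 and 11.79 in control and 11.59 and 11.55 in exposed superior retinas, and 11.58 and 11.66 in control and 11.34 and 11.14 in exposed inferior retinas, a log2 difference of -0.25 (standard error 0.07, adjusted p = 0.638). *Rcvrn*, a calcium sensor of phototransduction, was at -0.24 and *Esrrb*, a nuclear receptor of rods, at -0.26 (standard errors 0.07 and 0.08, adjusted p = 0.638 for each). For each of the 3 genes the difference was larger in hyperoxia-exposed than in control retinas, at -0.33 against -0.16, -0.31 against -0.18 and -0.38 against -0.14, and the changes did not pass their tests (adjusted p from 0.847 to 0.937).

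Neuropeptides of inner retinal neurons were among the leading genes of the inferior retina. *Sst* was at 7.40 and 7.36 in control and 7.24 and 7.20 in exposed superior retinas, and 8.08 and 8.15 in control and 7.99 and 8.50 in exposed inferior retinas. Each inferior array was above each superior array. Inferior minus superior came to 0.88 (standard error 0.11, 95% interval 0.63 to 1.13), or 1.84-fold, with an adjusted p of 0.135 from limma. It passed without hyperoxia inferior replicate 2, at 0.75 (adjusted p = 0.0274).

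*Tac2*, which encodes neurokinin B, was at 8.20 and 8.28 in control and 7.66 and 7.74 in exposed superior retinas, and 8.66 and 8.42 in control and 8.20 and 8.29 in exposed inferior retinas. Within each treatment the regions did not overlap, while the hyperoxia inferior and the control superior arrays lay at like levels. In log2 terms the region difference was 0.43 (standard error 0.08, adjusted p = 0.514 from limma). *Tac1*, which encodes substance P and neurokinin A, ran the other way, at -0.30 (standard error 0.07, adjusted p = 0.579). *Vip*, another amacrine peptide, was at 0.24, and *Gad2*, an enzyme that makes the transmitter GABA, at 0.32 (adjusted p = 0.638 for each). Of 19 amacrine genes 3 had no overlap in the inferior direction and 2 in the superior, beside 4.16% and 3.55% of all genes. When control inferior replicate 2 was left out it was 5 and 2, beside 8.42% and 7.12%. The median difference of the amacrine genes was 0.05.

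Other leading genes toward the superior retina were *Kif4*, *Alpk2*, *Ankar*, *Olfr320* and *Olfr1411*. *Kif4*, a kinesin motor of dividing cells, was at 5.87 and 5.95 in control and 5.99 and 6.00 in exposed superior retinas, and 5.29 and 5.57 in control and 5.38 and 5.41 in exposed inferior retinas. Limma put the log2 difference at -0.54 (standard error 0.07, adjusted p = 0.177 from limma). *Alpk2*, an alpha kinase, was at -0.88 (standard error 0.13, adjusted p = 0.215), with superior arrays between 6.66 and 6.77 and inferior arrays between 5.52 and 6.24. *Ankar*, a gene of ankyrin and armadillo repeats, was at -0.39 (adjusted p = 0.44), and the odorant receptor genes *Olfr320* and *Olfr1411* were at -0.48 and -0.29 (adjusted p = 0.224 and 0.514). None of these 5 overlapped between regions in either treatment.

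Toward the inferior retina the remaining leading genes were *Pdlim3*, *Ccdc136*, *Lgi2*, *Slc29a4* and *Ly86*. *Pdlim3*, whose protein binds actin-linked structures, was at 8.09 and 7.87 in control and 7.76 and 7.93 in exposed superior retinas, and 8.46 and 8.29 in control and 8.55 and 8.72 in exposed inferior retinas, a log2 difference of 0.59 (standard error 0.10, adjusted p = 0.44 from limma). *Lgi2*, a secreted protein of the nervous system, was at 0.33 and *Slc29a4*, a transporter of monoamines, at 0.39 (adjusted p = 0.44 and 0.502). *Ccdc136*, a coiled-coil gene, was at 9.99 and 9.93 in control and 9.79 and 9.86 in exposed superior retinas, and 10.39 and 10.19 in control and 10.24 and 10.24 in exposed inferior retinas. It had a difference of 0.37 (standard error 0.07, adjusted p = 0.44).

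The leading genes held 2 pairs of close neighbours in the RefSeq gene order of GRCm38.p6. *Ccdc136* is the next protein-coding gene after *Opn1sw* on chromosome 6, and both were higher on the inferior arrays of each treatment. The genes on either side of that pair, *Calu* and *Flnc*, were at log2 differences of 0.08 and 0.09 (adjusted p = 0.789 and 0.862 from limma). *Calu* too was higher on the inferior arrays of each treatment without overlap, at 0.15 in control and 0.02 in exposed retinas. *Flnc* was at -0.14 in control and 0.31 in exposed retinas. On chromosome X, *Kif4* lies after *Arr3* with only *Pdzd11* between them, and both were higher on the superior arrays of each treatment, while *Pdzd11* was at 0.02 (adjusted p = 0.944). These neighbours were looked up after the values of the leading genes were seen.

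**Figure D2:**
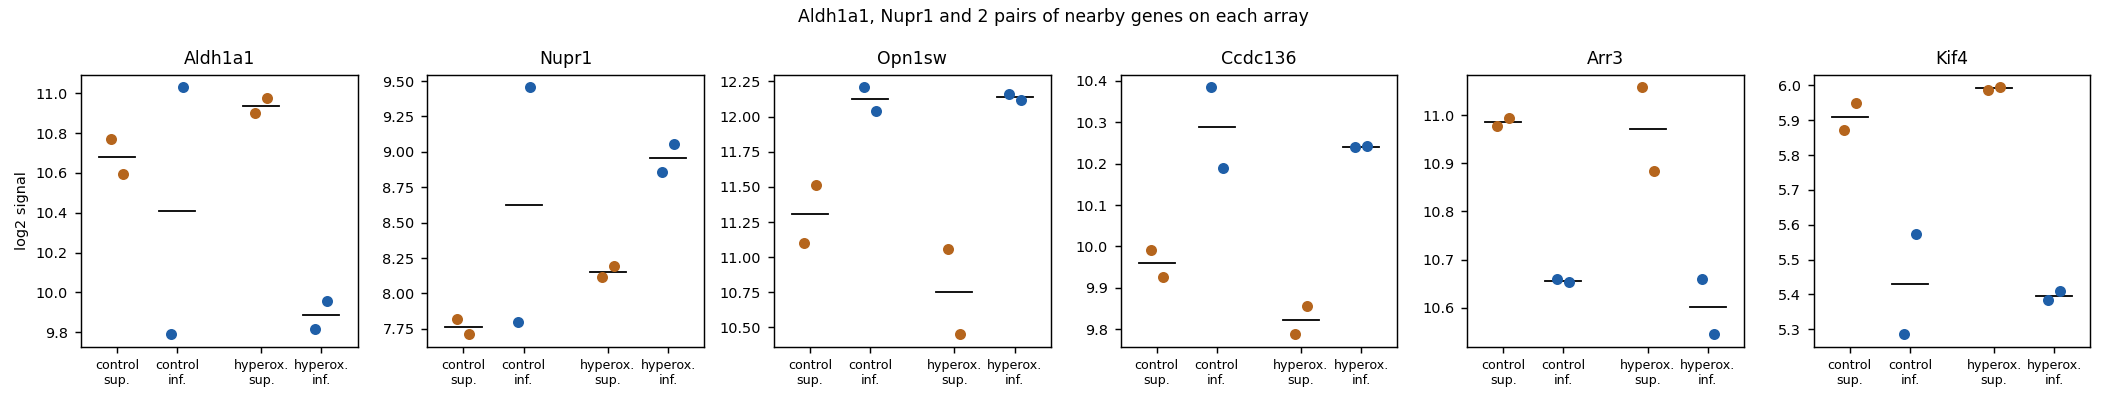
Log2 signal (vertical axes) of Aldh1a1, Nupr1 and the gene pairs Opn1sw with Ccdc136 and Arr3 with Kif4 on each array, with groups along the horizontal axes; each point is 1 array, brown for superior and blue for inferior, and lines are group means. Control inferior replicate 2 is the point at 11.03 for Aldh1a1 and at 9.46 for Nupr1, far above replicate 1 of its group.

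The 13 probe sets past 1.5-fold in both treatments were listed after the data were seen, and the fold itself chose them, so their values are only a description. Those with a gene name were *Tbx5*, *Nr2f2*, *Efnb2*, *Opn1mw* and *Alpk2*, higher in the superior retina, and *Vax2*, *Opn1sw*, *Sst*, *Nupr1* and *Serpina3n*, higher in the inferior. The other 3, without a gene name here, were the probe sets 10438603, 10559818 and 10375173, at log2 differences of -0.66, -0.79 and -0.76. Regions did not overlap in either treatment for 12 of the 13. The exception was *Nupr1*, a stress-induced nuclear protein, which was at 7.80 on control inferior replicate 1 and 9.46 on replicate 2, against 7.82 and 7.71 on the control superior arrays. *Serpina3n*, a protease inhibitor of reactive astrocytes, also rested on that array, at 8.92 and 9.67 on the control inferior arrays and 8.83 and 8.56 on the control superior. Neither was past 1.5-fold in both treatments without it. Other arrays also decided this count: *Opn1mw* and *Alpk2* fell outside without hyperoxia inferior replicate 2, *Efnb2* without control superior replicate 1 and *Nr2f2* without control inferior replicate 1. *Serpina3n* fell outside without any of 3 further arrays, hyperoxia superior replicate 1, control superior replicate 2 and hyperoxia inferior replicate 2. By the smaller of their 2 folds *Serpina3n* lay just inside, at 1.52-fold, and the probe set 10458888 and the lens gene *Crygc* just outside, at 1.49-fold and 1.47-fold.

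**Figure D3:**
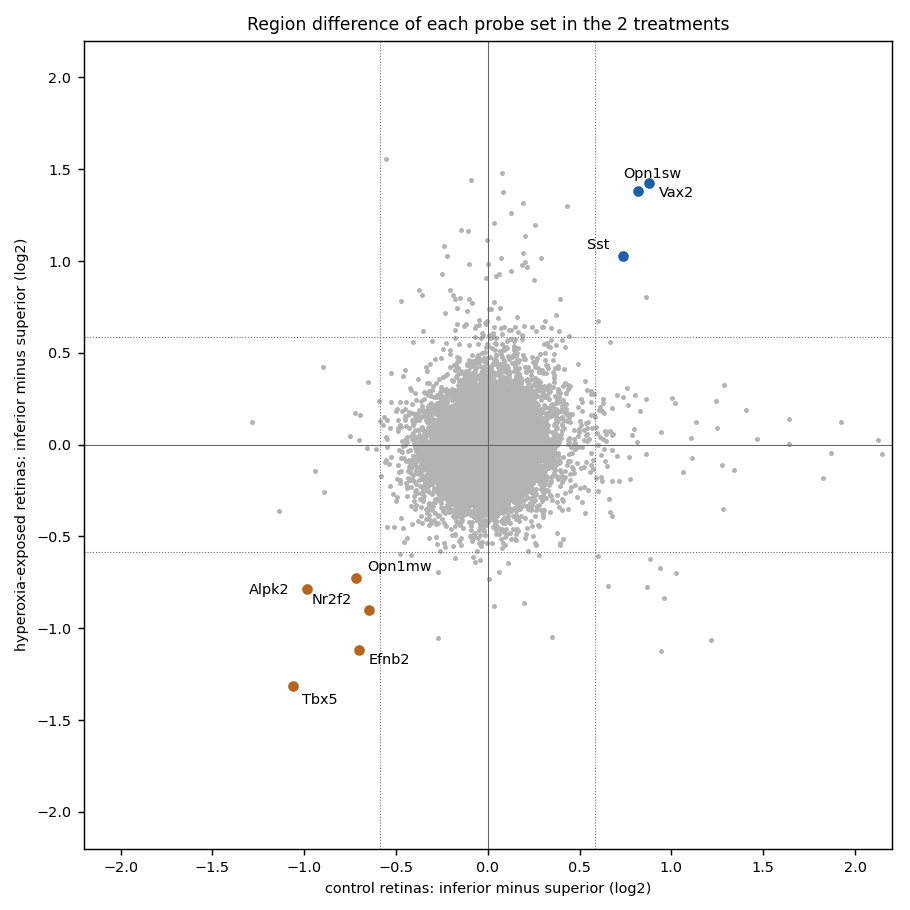
Region difference (inferior minus superior, log2) of each of 19938 genes, read by 1 probe set each, in control retinas (horizontal axis) and hyperoxia-exposed retinas (vertical axis). Probe sets without 1 gene symbol are not drawn. Grey points are genes, coloured points the named genes past 1.5-fold in both without overlap other than Serpina3n, and dotted lines mark 1.5-fold. Probe sets past 1.5-fold in control retinas have a median absolute difference of 0.20 in exposed ones, those past it in exposed retinas 0.125 in control, and the named genes stand at the corners, with Tbx5 at -1.06 and -1.32 and Vax2 at 0.88 and 1.43.

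The 2 treatments share no array, so each gives a separate value of the region difference. The p-values that rank probe sets below come from the limma fit of group means, which pools the spread of both treatments. Over all probe sets, 52.4% had the same sign in both, and the differences correlated across probe sets at a Pearson r of 0.05 and a Spearman rho of 0.07; probe sets are not independent, and no test is given. Of the 100 probe sets with the smallest p in control retinas, 53 had the same sign in hyperoxia-exposed retinas. Of the 100 with the smallest p in hyperoxia-exposed retinas, 64 had the same sign in control retinas. Of the 253 past 1.5-fold in hyperoxia-exposed retinas, 37.5% had the same sign in control retinas. The test of the change in region difference called 1 probe set, *Edn2*, the gene of the vasoactive peptide endothelin-2 (0.00347% of all, 6.04% at an unadjusted p under 0.05). *Edn2* was at -0.56 in control and 1.56 in hyperoxia-exposed retinas, a change of 2.11 (standard error 0.12, adjusted p = 0.00185 from limma), and its main effect of 0.50 describes neither. The change did not pass with a replicate block within treatment (adjusted p = 0.0925 from limma) or with the pigment epithelium level as a covariate (adjusted p = 0.081), which called 0 probe sets each, with 1918 and 1733 at an unadjusted p under 0.05. Without control inferior replicate 1 the test called 30 probe sets, *Edn2* among them (adjusted p = 0.00343).

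Microglia and macrophages, the phagocytes of the retina, gave many small p-values in the additive model, but their region difference lay mostly in the exposed animals. Of 35 genes, 16 were higher in the inferior retina at an unadjusted p under 0.05 and 0 in the superior, beside 4% and 3.45% of all genes, and 0 passed over all probe sets in limma's additive fit. In the limma fit of group means the region difference of *Ly86* and *Csf1r* passed (adjusted p = 0.0225 and 0.031). There was no overlap in either treatment for 8 genes in the inferior and 0 in the superior direction, beside 4.16% and 3.55% of all genes. Among all genes, leaving out replicate 1 took the inferior share without overlap to 7.83% for control superior and 7.35% for control inferior. Leaving out control inferior replicate 2 took it to 8.42%. Left out 1 at a time, the arrays gave 8 to 15 microglial genes without overlap in the inferior direction, with 15 if replicate 1 of either control group was dropped and 13 if control inferior replicate 2 was. At an unadjusted p under 0.05 they gave 10 to 21, with 10 without hyperoxia inferior replicate 1. The median difference was 0.24, made up of 0.07 in control and 0.46 in hyperoxia-exposed retinas, and 32 of the 35 were larger in the exposed. *Ly86*, a surface protein of macrophages, was at 6.72 and 6.75 in control and 7.86 and 7.84 in exposed superior retinas, and 7.30 and 7.04 in control and 9.10 and 9.20 in exposed inferior retinas. Regions did not overlap in either treatment, at 0.43 in control and 1.30 in hyperoxia-exposed retinas (adjusted p = 0.85 and 0.00697 from the limma fit of group means). *Csf1r*, the receptor that keeps microglia alive, was at 0.21 and 0.97. The changes of 0.87 and 0.76 with treatment did not pass over all probe sets (adjusted p = 0.307 for each), with unadjusted p of 0.000296 and 0.000153 from limma.

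Genes of the glial stress response, such as those of reactive Müller cells and astrocytes, followed the same form. Of 23 genes, 15 were higher in the inferior retina at an unadjusted p under 0.05 from limma and 0 in the superior, beside 4% and 3.45% of all genes. In the same order 4 and 0 had no overlap in either treatment, beside 4.16% and 3.55%. Dropping 1 control array changed the 4 to 7 for inferior replicate 2, to 8 for inferior replicate 1 and to 11 for superior replicate 1. The share of all genes in the inferior direction became 8.42%, 7.35% and 7.83% in the same order. Dropping 1 of the hyperoxia arrays changed the 15 to 9 for inferior replicate 1 and to 8 for each of the other 3. The median difference was 0.37. It was -0.0026 in control and 0.67 in hyperoxia-exposed retinas, so the additive value is an average of unlike differences. *Gadd45b*, a gene of the stress response, was at 0.29 in control and 1.02 in exposed retinas, and *Chil1*, a secreted glycoprotein of reactive glia, at 0.25 and 0.90; both had no overlap in either treatment. *Cd44*, a receptor for hyaluronan, was at 0.44 and 0.59, with 7.51 on control inferior replicate 2 against 6.87 on replicate 1. The summed signal of the list was 7997 to 8770 in control and 11700 to 13150 in exposed superior retinas, and 8485 to 10900 in control and 18900 to 20940 in exposed inferior retinas. These lists hold genes that the study chose on these arrays, which are not independent evidence.

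**Figure D4:**
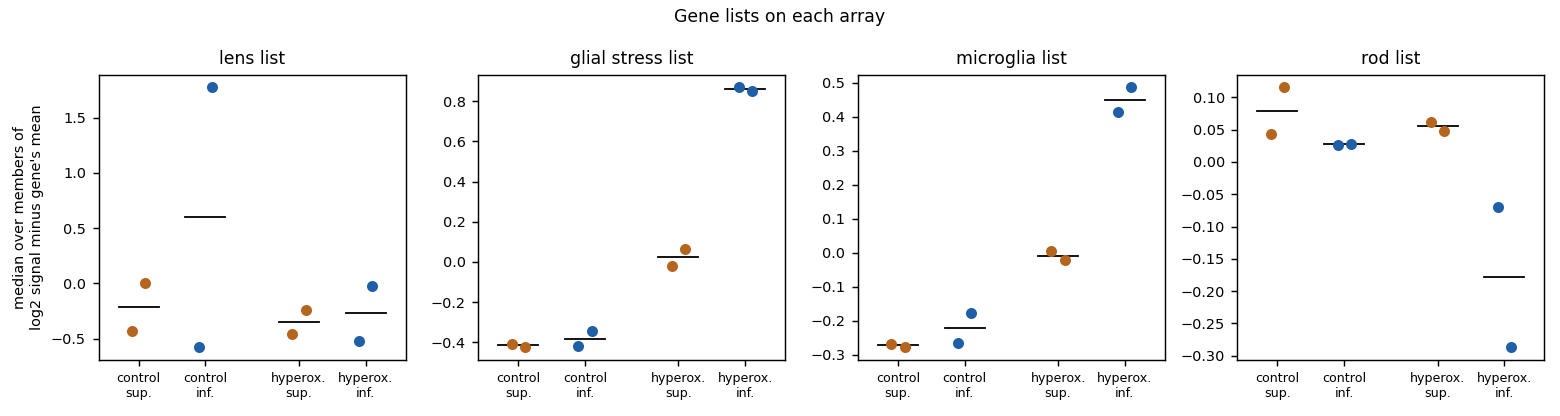
Median over the genes of each list of the log2 signal minus the gene's mean over all arrays (vertical axes) on each array, with groups along the horizontal axes; each point is 1 array, brown for superior and blue for inferior, and lines are group means. Lens genes stand at 1.77 on control inferior replicate 2, glial stress genes at 0.87 and 0.85 and microglial genes at 0.41 and 0.49 on the hyperoxia inferior arrays, and rod genes at -0.07 and -0.29 there.

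Complement genes, interferon genes and metallothioneins were read in the same way. At an unadjusted p under 0.05 from limma, 5 of 15 complement genes leaned to the inferior and 1 to the superior retina, beside 4% and 3.45% of all genes. *C3* itself had no probe set of 1 symbol. The median was 0.02 in control and 0.34 in hyperoxia-exposed retinas. *C1qc*, a part of the first complement component, was at 0.19 and 1.31. *Cfi*, the factor that cleaves activated C3 and C4, ran the other way, at 6.52 and 6.19 in control and 6.85 and 6.90 in exposed superior retinas, and 5.84 and 6.08 in control and 6.49 and 6.56 in exposed inferior retinas. Its differences were -0.40 in control and -0.35 in exposed retinas, for a log2 difference of -0.37 (standard error 0.09, adjusted p = 0.579). Of 23 genes of interferon response and MHC class I, 3 were higher in the inferior retina and 0 in the superior at the same threshold, with a median of -0.01 in control and 0.29 in hyperoxia-exposed retinas. Without control inferior replicate 2 the 3 became 6, and without hyperoxia superior replicate 1 or hyperoxia inferior replicate 2 they became 0. Of 20 metallothioneins and antioxidants, 19 had a positive difference, 3 of them at an unadjusted p under 0.05, and the median was 0.11 in control and 0.14 in exposed retinas. The 3 were *Mt2*, *Mt1* and *Gpx1*. The metallothioneins, small proteins that bind zinc and copper, differed mostly in the exposed animals: *Mt2* was at 0.20 in control and 1.00 in exposed retinas and *Mt1* at 0.07 and 0.63, each with overlap in control retinas. The changes of 0.80 and 0.57 had unadjusted p of 0.00449 and 0.00211 and did not pass over all probe sets (adjusted p = 0.641 and 0.593 from limma). *Gpx1*, a glutathione peroxidase, was at 0.20 (standard error 0.07, adjusted p = 0.638), without overlap in either treatment.

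**Figure D5:**
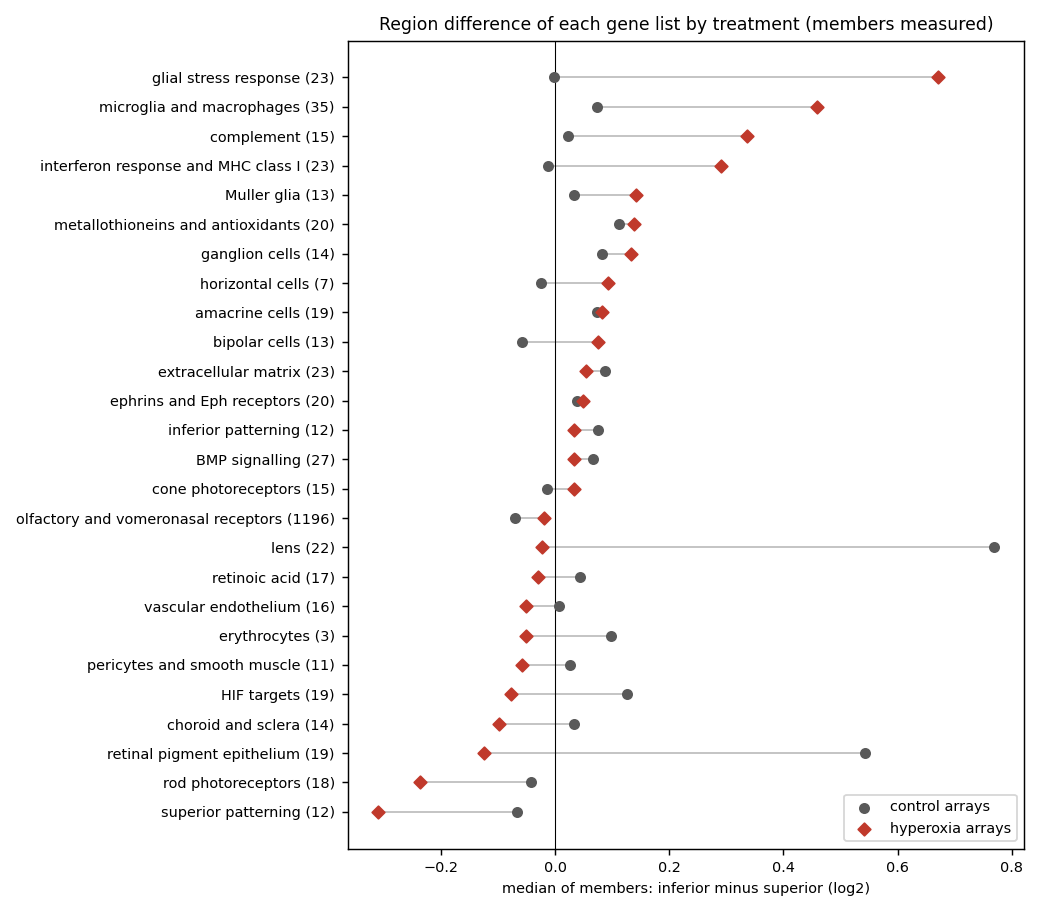
Median region difference (inferior minus superior, log2; horizontal axis) of each of 26 gene lists (vertical axis, with the number of genes measured) in control arrays (grey circles) and hyperoxia arrays (red diamonds). Glial stress, microglial, complement and interferon lists lie near 0 in control and between 0.29 and 0.67 in hyperoxia-exposed retinas, and lens and pigment epithelium lists lie at 0.77 and 0.54 in control and -0.02 and -0.13 in exposed retinas.

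Lists of other retinal cell types had small medians. Ganglion cell genes were mostly higher in the inferior retina, 13 of 14 by sign, with 3 at an unadjusted p under 0.05 from limma (4% of all genes) and a median difference of 0.11, 0.08 in control and 0.13 in exposed retinas. Of these genes 2 had no overlap in the inferior direction, beside 4.16% of all genes. Without control inferior replicate 2 it was 5, beside 8.42% of all genes. *Slc17a6*, the glutamate transporter of ganglion cells, was at 0.26 and *Sncg*, gamma-synuclein, at 0.13 (adjusted p = 0.638 and 0.673), each without overlap in either treatment. Of 13 Müller cell genes 3 had no overlap in the inferior direction and 0 in the superior, beside 4.16% and 3.55% of all genes. The 3 became 5 without control inferior replicate 2, beside 8.42% of all genes. *Apoe*, a lipid carrier, was at 0.27 and *Car14*, a carbonic anhydrase, at 0.20 (adjusted p = 0.638 and 0.639). Bipolar and horizontal cell lists had medians of 0.01 and -0.02.

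Non-retinal cell types were read for the purity of the dissection. The 16 endothelial, 11 pericyte and smooth muscle, 14 choroid and sclera and 3 erythrocyte genes had medians of -0.01, -0.09, -0.04 and 0.05, and at most 1 gene of each list was past an unadjusted p of 0.05 in either direction. With all arrays the lens list had a median of 0.52, and 0 of its 22 genes had an unadjusted p under 0.05 from limma. Its median was -0.14 without control inferior replicate 2, where its control median was -0.43 in place of 0.77. The pigment epithelium list had a median of 0.12, made up of 0.54 in control and -0.13 in hyperoxia-exposed retinas, and again 0 of 19 genes had an unadjusted p under 0.05. Without control inferior replicate 2 its median was -0.0413 and its control median 0.18. Genes of extracellular matrix had a median of 0.07, and HIF targets, which answer to low oxygen, had a median of 0.0037, with 0.12 in control and -0.08 in exposed retinas. *Pfkfb3* and *Bhlhe40*, 2 of these targets, were at 0.19 and 0.20 (adjusted p = 0.638 for each), without overlap in either treatment.

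Odorant and vomeronasal receptor genes, which mark no retinal cell type, were mostly dim on these arrays, and their shares without overlap lay near those of all dim probe sets. Of 1196 genes 61 (5.1%) had no overlap in either treatment in the superior direction and 21 (1.76%) in the inferior, and the median difference was -0.04. Over the 9995 dim probe sets of any kind, with a mean log2 signal under 6, 4.61% had no overlap in the superior and 2% in the inferior direction. The receptor counts were 118 (9.87%) and 43 (3.6%) without control inferior replicate 2, beside 7.12% and 8.42% of all genes. When each array was left out they were 89 to 135 (7.44% to 11.3%) and 38 to 48 (3.18% to 4.01%). All genes then ran from 5.18% to 7.12% and from 5.73% to 8.42%. The shares of dim probe sets were taken with all arrays only. *Olfr320*, *Olfr1411* and *Olfr1303* were at -0.48, -0.29 and -0.31, and *Olfr787*, at 0.50, ran the other way, none past limma's test (adjusted p from 0.224 to 0.514).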

How the data were processed

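Superior and inferior retinas were read on 8 Affymetrix Mouse Gene 1.0 ST arrays. The authors corrected the background by RMA in Partek, took log2 values and summarized probes by median polish; the sources used here give no version, scaling between arrays or genome build. The deposited values were used unchanged. Of 28853 probe sets, 21789 had 1 gene symbol in the platform annotation, 1621 several and 5443 none listed; 21698 matched the GRCm38.p6 gene table by Entrez ID, which changed 0 symbols. For each of 19938 genes the probe set of the highest mean was read.

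Region and treatment were fitted additively with limma 3.58.1 in R 4.3.3 (5 residual and 4.29 prior degrees of freedom), with Benjamini-Hochberg adjustment over all probe sets and a threshold of 0.05. A fit of the 4 group means gave each treatment's difference and the interaction. The number of arrays limits the precision. Genes named were the 10 with the smallest p in each direction, all members of both patterning lists, both cone opsins, the 4 with the smallest p of every other list with those past 1.5-fold in both treatments added; *Edn2*, *Crygc*, *Calu*, *Flnc* and *Pdzd11* were named after their values were seen. Of 460 entries on the gene lists other than the receptor families, 30 had no probe set of 1 symbol. The members and lists were chosen with earlier results of these data known. The fit was tested on simulated data. The alternatives were other scalings, filters and models, the replicate number as a block, lens and pigment epithelium covariates, and leaving out each array; those for the 1.5-fold count, the share of equal signs and the lists were chosen after seeing the data.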

Additional observations from a re-analysis of the deposited data

Results flagged for a closer look

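Among the named genes, *Slc6a13*, *Bmp2*, *Flnc* and *Edn2* had region differences of opposite direction in the 2 treatments, without overlap of the arrays in either. *Slc6a13*, a transporter of GABA and taurine, was at 8.54 and 8.77 on the control superior, 9.03 and 9.29 on the control inferior, 9.17 and 9.17 on the hyperoxia superior and 9.00 and 9.09 on the hyperoxia inferior arrays, so that the difference in exposed retinas was lower than in control by -0.63 on the log2 scale (adjusted p = 0.641 from limma). *Bmp2*, a ligand of the BMP pathway, was at 6.19 and 6.25, 6.48 and 6.93, 6.46 and 6.52, and 6.09 and 6.33 in the same order, a change of -0.77 (adjusted p = 0.676 from limma); its additive difference of 0.10 turned to -0.0637 without control inferior replicate 2. *Flnc*, which encodes filamin C, was at 6.40 and 6.25, 6.19 and 6.19, 6.19 and 6.21, and 6.42 and 6.60, a change of 0.45 (adjusted p = 0.711 from limma). *Edn2* was at 7.55 and 7.43, 6.91 and 6.95, 8.20 and 8.17, and 9.76 and 9.72, a change of 2.11 that passed limma's test (adjusted p = 0.00185). The other 3 changes did not pass over all probe sets, and 5.92% of all probe sets showed opposite directions without overlap.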

How the results depend on the processing

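*Tbx5* kept its direction in all 22 alternatives run for it and its call in 20; it was not called by the methods' t-test, which called 0 probe sets (1863 at an unadjusted p under 0.05), or on the control arrays alone, which called 0 (smallest adjusted p = 0.938). It was not among the probe sets with a mean log2 signal of 6 or more, where the 1 called was *Nr2f2*. Quantile normalization, median centring and 1-symbol probe sets each called 2 (*Tbx5* and *Nr2f2*), both toward the superior retina and without overlap. A variance trend called 6, 2 toward the inferior and 4 toward the superior retina, all 6 without overlap (*Tbx5*, *Nr2f2*, *Opn1mw*, *Sst*, *Vax2* and *Efnb2*). A model of the 4 group means called 5, 3 inferior and 2 superior, all 5 without overlap (*Tbx5*, *Nr2f2*, *Ly86*, *Csf1r* and the unnamed probe set 10523717), and the hyperoxia arrays alone called 22, 20 inferior and 2 superior. Leaving out each array gave 1 to 2 calls, 0 to 1 inferior, 1 to 2 superior and 1 to 2 without overlap; the second was *Aldh1a1* without control inferior replicate 2 and *Sst* without hyperoxia inferior replicate 2. The interaction called 1 to 30, with 30 without control inferior replicate 1, 2 without dim probe sets, 3 with a variance trend and 0 with the pigment epithelium covariate or with the replicate block within treatment. The count past 1.5-fold in both treatments was 10 to 19 when each array was left out. The share of equal signs was 51% after quantile normalization and 53.2% over 1-symbol probe sets. *B2m*, part of MHC class I, was at 0.31 in the additive fit and at -0.0502 on the control arrays alone. Causes were not tested.

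Over all probe sets same-numbered arrays did not deviate together throughout (correlations from -0.021 to 0.144), so the numbers are not taken as a pairing. The lens list, though, was higher on replicate 2 than on replicate 1 in each group. With the replicate number as a block 1 probe set was called, as it was with a block within treatment (*Tbx5*, adjusted p = 0.00925 and 0.0408 from limma). With 2 arrays per group, differences that miss the threshold are not shown to be absent, and dim probe sets carry less signal over background.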
